A study of Homo sapiens with 6 samples.

Results

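The long non-coding RNAs MALAT1, NEAT1, NORAD, MIAT and OIP5-AS1 were taken from the eIF4B iCLIP data as the rows whose gene name equals one of these 5 symbols, out of 21900 gene names with a count. iCLIP maps the nucleotide at which a cross-linked protein stopped reverse transcription, and each stop is a cDNA count at a position. RNA was cross-linked to protein by UV in DoHH-2, a diffuse large B-cell lymphoma (DLBCL) cell line, and in GM01953, a B-cell line from disease-free individuals, and was recovered with an antibody against eIF4B. Neither line was treated or genetically altered for this experiment, and each stands as 1 cell line for its condition. By its labels DoHH-2 had 4 replicates and GM01953 had 2, which were pooled into 1 table per line before deposit, and neither a spread between replicates nor a test between the lines can be given. All intervals are 95% intervals for counting error only.

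eIF4B is a cofactor of the helicase eIF4A in translation initiation and is mostly found in the cytoplasm. The 5 RNAs are transcribed by RNA polymerase II and have no established protein product. MALAT1 stays in the nucleus at nuclear speckles and is among the most abundant long non-coding RNAs of many cell types. NEAT1 is the scaffold of nuclear paraspeckles and is made as a short, polyadenylated isoform and a long isoform that shares the start of the short one. NORAD is largely cytoplasmic and is known for a role in keeping chromosomes stable. OIP5-AS1, the human counterpart of the zebrafish RNA Cyrano, binds microRNA miR-7. MIAT was described first as a transcript associated with myocardial infarction and is nuclear in neurons. Where the RNAs sat in DoHH-2 and GM01953 cells was not measured here.

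The sequences around some of the highest cross-link positions are given to show the kind of sequence in which counts gathered. They hold a small part of the counts, with 1.09% of the MALAT1 counts in DoHH-2 at the highest position. Each is 29 nt of the GRCh38 genome read on the transcribed strand, 5′ to 3′, with the cross-link position as the capital letter and T standing for U of the RNA. The first MALAT1 pair was the highest in DoHH-2 and the second pair the highest in GM01953. The NORAD position with 5 counts in DoHH-2 is 1 of 4 with that count and is shown for the 5′ part of the RNA, and MIAT is shown for its only position, which is not a binding site by the deposited FDR.
MALAT1, DoHH-2, 14 counts, chr11:65504304-65504332, plus strand: gtagctttttttttTtttacagacttcac
MALAT1, DoHH-2, 12 counts, chr11:65504901-65504929, plus strand: accaaacattccatTttaaatgtggggat
MALAT1, GM01953, 11 counts, chr11:65499793-65499821, plus strand: gacaagctaggaaaCaaaaagctaagggc
MALAT1, GM01953, 11 counts, chr11:65501436-65501464, plus strand: tggtagttactcttTtttccccccacccc
NEAT1, DoHH-2, 8 counts, chr11:65432309-65432337, plus strand: tcttagtatcattgGgaaggccacatttg
NEAT1, GM01953, 7 counts, chr11:65432016-65432044, plus strand: taaggtattttagtTgtcttagtctatat
NORAD, DoHH-2, 10 counts, chr20:36048750-36048778, minus strand: ttctgtaaagacttTtgcataggaatttg
NORAD, DoHH-2, 6 counts, chr20:36045667-36045695, minus strand: ttgcttgtgtttttCaatttcctataatg
NORAD, DoHH-2, 5 counts, chr20:36050799-36050827, minus strand: ataacggaggcctcTgctgtggctgccca
NORAD, GM01953, 5 counts, chr20:36050725-36050753, minus strand: gcgaacctctctttCccaccccacctcgg
OIP5-AS1, DoHH-2, 8 counts, chr15:41286030-41286058, plus strand: aaattttccttgacCtttaggtgctttta
OIP5-AS1, DoHH-2, 8 counts, chr15:41298030-41298058, plus strand: tgtatttctaggtgTctctatgttgtctc
OIP5-AS1, GM01953, 3 counts, chr15:41283990-41284018, plus strand: agggttggccacctTgagaagctgcgaag
MIAT, both lines, 1 count each, chr22:26673207-26673235, plus strand: tctggctctctgttCccacggacgtcact
The MALAT1 position chr11:65501450, in a run of T before a run of C, had 11 counts in GM01953 and 5 in DoHH-2. The other MALAT1 positions shown had counts in 1 line only, as had all the NEAT1 positions shown. The third OIP5-AS1 window reaches upstream of the first canonical exon, and the window at chr15:41298044 covers the boundary of the last exon of the longest transcript.

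DoHH-2 held 2033156 cDNA counts at 1179243 positions and GM01953 held 167197 at 78474, a depth ratio of 12.2. Counts of a gene are given as CPM, the counts per 1000000 counts of the line. The share of counts in introns of coding genes, where unspliced RNA gives counts, was 12.2% in both lines. B-cell markers were found in both, with counts on 5 of 6 genes in DoHH-2 (1253 counts or 616 CPM in all, from 0 for CD22 to 1023 for CD74) and on 6 of 6 in GM01953 (606 counts or 3624 CPM, from 7 to 359). The 4 T-cell markers were at 0 in DoHH-2 and had 21 GM01953 counts, all on TRAC, and the 4 myeloid markers were at 0 in both.

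MALAT1 was the most heavily cross-linked of the 5 RNAs in both cell lines. It had 1279 counts at 831 positions in DoHH-2, or 629 CPM (interval 596 to 664), and 260 counts at 146 positions in GM01953, or 1555 CPM (1377 to 1756). By count it ranked 2 of 3469 long non-coding RNAs in DoHH-2 and 1 of 1040 in GM01953, and 120 and 35 among all genes. The order of the other members differed between the lines.

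In DoHH-2, OIP5-AS1 had 346 counts (170 CPM, 153 to 189), NEAT1 had 307 (151 CPM, 135 to 169) and NORAD had 253 (124 CPM, 110 to 141). These were ranks 17, 25 and 31 among the long non-coding RNAs. The intervals of neighbours in this order overlap, and those of OIP5-AS1 and NORAD do not.

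In GM01953, NEAT1 followed MALAT1 with 46 counts (275 CPM, 206 to 367). NORAD had 19 counts (114 CPM, 72.8 to 177) and OIP5-AS1 had 11 (65.8 CPM, 36.7 to 118), and their intervals overlap. Their ranks were 9, 48 and 102. With so few counts, only the lead of MALAT1, and that of NEAT1 over the RNAs below it, exceeded the counting error.

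MIAT had 1 count in each line, below the level of 3 counts that marks the detection limit, which is 1.48 CPM in DoHH-2 and 17.9 CPM in GM01953. Both counts lay at the same nucleotide, chr22:26673221, in an exon of a MIAT transcript other than the canonical one, and the position is also listed for the neighbouring gene MIATNB. At this depth no eIF4B binding to MIAT was detectable.

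**Figure D1:**
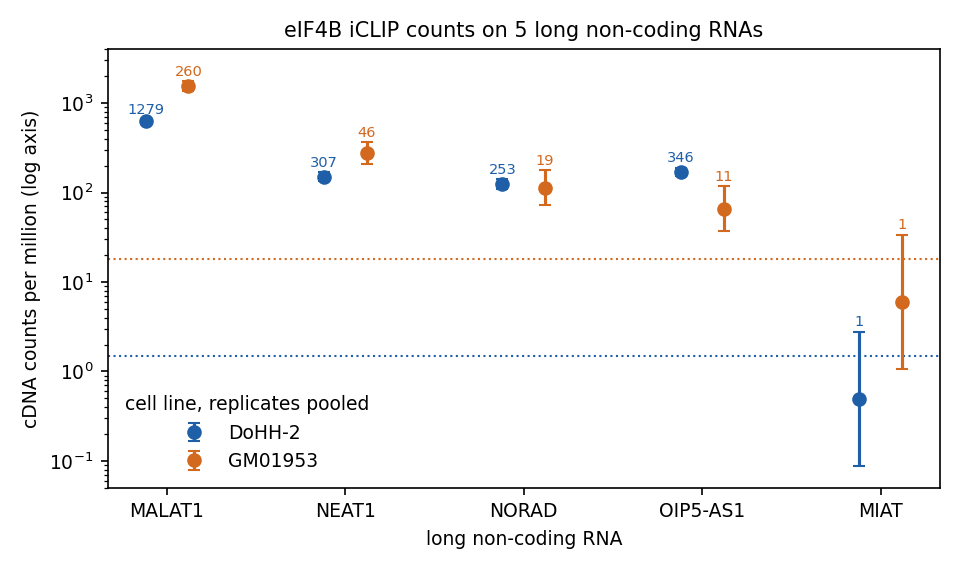
CPM on a log axis for each RNA in DoHH-2 (blue) and GM01953 (orange), with replicates pooled, Wilson 95% counting intervals as bars, and the number of counts above each point. Dotted lines mark 3 counts in each line. MALAT1 is highest in both lines at 629 and 1555, and MIAT, with 1 count each, lies below the dotted line of the same colour.

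The 5 RNAs together held 2186 counts at 1537 positions in DoHH-2 (1075 CPM, 1031 to 1121) and 337 counts at 190 positions in GM01953 (2016 CPM, 1812 to 2242). They made up 4.30% of all counts on long non-coding RNAs in DoHH-2 and 6.05% in GM01953. The larger sum in GM01953 came from MALAT1 and NEAT1, the nuclear pair. Counts were not set against RNA abundance, so more of an RNA and more eIF4B binding per RNA molecule cannot be told apart.

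The share of counts was next compared between the lines for each RNA. MALAT1 was 2.47-fold higher in GM01953 (exact interval 2.16 to 2.83). NEAT1 was 1.82-fold higher in GM01953 (1.31 to 2.49), which did not pass the 2-fold limit used as the call for 1 pooled library a line. The ratio of NORAD, DoHH-2 over GM01953, was 1.10 (0.687 to 1.85), so no difference was detectable. OIP5-AS1 was 2.59-fold higher in DoHH-2 (1.43 to 5.23). MIAT had too few counts to be compared.

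Of the 4 members with at least 20 counts over both lines, 1 was over 2-fold higher in GM01953, where 14.7% of all 10309 genes were, and 1 in DoHH-2, where 32.9% were. With counts at binding sites only, defined by the deposited FDR, the ratio of OIP5-AS1 was 1.83 and that of NEAT1 was 0.119, so that OIP5-AS1 lost its call and NEAT1 gained one. In that setting 31.7% of 5440 genes were over 2-fold higher in GM01953 and 29.3% in DoHH-2, so the excess of genes towards DoHH-2 was not seen there. The median ratio over all genes tested was 1.29, DoHH-2 over GM01953, on a log2 scale 0.37. Relative to this median the ratio was 0.314 for MALAT1, 0.426 for NEAT1, 0.850 for NORAD and 2.01 for OIP5-AS1, so that NEAT1 then also passed the 2-fold limit, NORAD changed side and OIP5-AS1 was at the limit. The mRNAs of ACTB and GAPDH, both abundant and cytoplasmic, had ratios of 0.495 and 0.620, on the same side as MALAT1 and NEAT1.

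**Figure D2:**
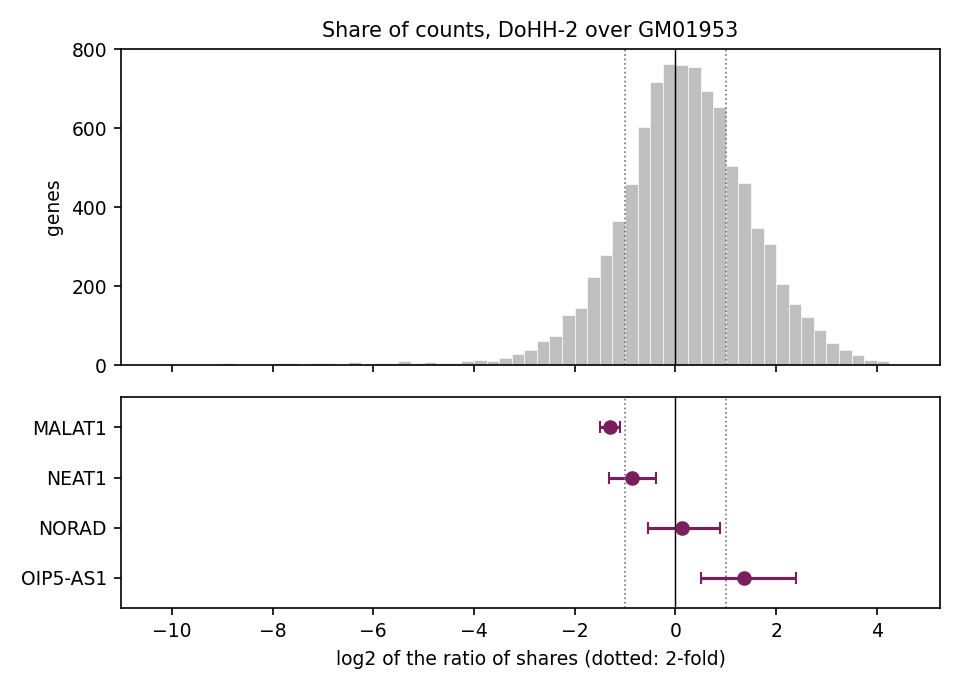
Upper panel, number of genes by log2 ratio of the share of counts in DoHH-2 over that in GM01953, for the 9220 of 10309 genes tested with counts in both lines. Lower panel, the same ratio for 4 RNAs with exact 95% counting intervals. Dotted lines mark 2-fold, and MALAT1 lies past it on the GM01953 side at 0.405 and OIP5-AS1 on the DoHH-2 side at 2.59.

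To set the nuclear RNAs against the cytoplasmic NORAD, counts were divided by the length of the canonical transcript. In DoHH-2 the density was 60.3 CPM per kb for MALAT1, 23.0 for NORAD, 15.4 for OIP5-AS1 and 6.64 for NEAT1. In GM01953 it was 149 CPM per kb for MALAT1, 21.0 for NORAD, 13.0 for OIP5-AS1 and 12.1 for NEAT1. MALAT1 was the highest in both lines, and NEAT1 lay below NORAD in both, although the intervals of NORAD, OIP5-AS1 and NEAT1 overlap in GM01953. The place of NEAT1 in GM01953 depends on the length used. Over the 3660 nt shared with its short isoform, NEAT1 had 3.55 counts per kb in GM01953, beside 3.52 for NORAD. In DoHH-2 this part had 31.1 counts per kb, beside 46.8 for NORAD. The place of OIP5-AS1 depends on the transcript, since on its longest one the density was 17.1 CPM per kb in DoHH-2 and 6.06 in GM01953, below NEAT1 there. Among coding genes with a count, whose median density was 4.83 in DoHH-2 and 7.02 in GM01953, MALAT1 stood at percentile 94.1 and 97.1, NORAD at 84.2 and 76.7, and NEAT1 at 57.7 and 63.4.

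MALAT1 had 2.62 times the density of NORAD in DoHH-2 (2.28 to 3.01) and 7.08 times in GM01953 (4.45 to 12.0). NEAT1 had 0.288 times the density of NORAD in DoHH-2 (0.243 to 0.342) and 0.575 times in GM01953 (0.330 to 1.04), where the interval reaches 1. Pooled, MALAT1 and NEAT1 had 1.02 times the density of NORAD in DoHH-2 (0.893 to 1.17) and 2.62 times in GM01953 (1.65 to 4.42). In DoHH-2 this value is a mean of an RNA well above NORAD and another well below it, and it became 0.687 (0.559 to 0.849) at binding sites only and 2.11 (1.84 to 2.42) with NEAT1 taken up to the end of its short isoform. The latter gave 5.51 (3.46 to 9.29) in GM01953.

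MALAT1 is a single-exon gene at chr11:65497640-65508073 on the plus strand (ENSG00000251562, 10434 nt). Its counts covered a broad central stretch of the annotated gene, with few or none at the annotated ends. Where the MALAT1 RNA starts and ends in these cells was not measured. In DoHH-2, 1276 of 1279 counts (99.8%) lay within the span of the transcript MALAT1-225, chr11:65499045-65506469, with 3 counts upstream of it and 0 downstream. All 260 counts in GM01953 lay within the same span, which is 71.2% of the annotated gene. MALAT1-225 was chosen out of 66 annotated transcripts after the values were seen. Positions with a count made up 7.96% of the nucleotides in DoHH-2 and 1.40% in GM01953.

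Of 10 equal parts of MALAT1 counted from the 5′ end, part 7 was the fullest in DoHH-2 with 258 counts (20.2%, 18.1 to 22.5), and it held 21 counts (8.08%, 5.34 to 12.0) in GM01953. The fullest in GM01953 was part 4 with 64 counts (24.6%, 19.8 to 30.2), where DoHH-2 had 243 (19.0%, 16.9 to 21.2). Part 3 held 14.2% (10.5 to 19.0) of the GM01953 counts and 8.13% (6.76 to 9.76) of the DoHH-2 counts, and 11 of its 37 counts in GM01953 were at chr11:65499807. Upstream of the midpoint lay 49.3% (46.6 to 52.1) of the counts in DoHH-2 and 65.8% (59.8 to 71.3) in GM01953. By positions instead of counts the shares were 51.1% (47.7 to 54.5) and 57.5% (49.4 to 65.3), whose intervals overlap, so the shift towards the 5′ end in GM01953 was seen in counts and not beyond the error in positions.

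No small group of positions carried MALAT1 in DoHH-2, where the 10 highest positions held 7.97% of its counts and the fullest 100 nt held 53 counts, 4.32 times the mean. In GM01953 the 10 highest held 27.3%, and the fullest 100 nt held 21 counts, 8.43 times the mean.

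NEAT1 lies upstream of MALAT1 at chr11:65422774-65445540 on the plus strand (ENSG00000245532, canonical transcript of 22743 nt in 1 exon) and showed a sparser pattern. Counts were spread over its whole length in DoHH-2, with all 10 parts holding from 13 to 66 counts. The first 3660 nt, which the short isoform NEAT1-201 shares with the long one, held 114 of 307 counts in DoHH-2 (37.1%, 31.9 to 42.7) and 13 of 46 in GM01953 (28.3%, 17.3 to 42.5), against 16.1% of the length. The remaining 193 and 33 counts lay in the part that only the long isoform has.

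Per nucleotide, the shared part of NEAT1 had 3.08 times the counts of the rest in DoHH-2 (2.42 to 3.90) and 2.05 times in GM01953 (0.992 to 4.01), where the interval just includes 1. In the shared part, molecules of both isoforms add to the count. In GM01953 the fullest part was part 5, with 17 of 46 counts (37.0%, 24.5 to 51.4), of which 7 were at chr11:65432030 and 6 at chr11:65433843. DoHH-2 had 0 counts at both of these positions and 30 counts (9.77%, 6.93 to 13.6) in the same part.

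NORAD is a single-exon gene at chr20:36045618-36051018 on the minus strand (ENSG00000260032, 5401 nt), and its counts gathered at the 5′ end in both lines. The first of its 10 parts, 541 nt at chr20:36050478-36051018, held 118 of 253 counts in DoHH-2 (46.6%, 40.6 to 52.8) and 13 of 19 in GM01953 (68.4%, 46.0 to 84.6). Per nucleotide this was 7.85 times the rest of the RNA in DoHH-2 (6.08 to 10.1) and 19.5 times in GM01953 (6.90 to 62.4). In GM01953, 5 of the 13 counts were at nucleotide 280, and without that position the share of the first part was 57.1%. The fullest 100 nt, nucleotides 145 to 244, held 73 counts in DoHH-2, 28.9% of the total.

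The first part of NORAD held most of its binding sites, the positions whose deposited FDR was below 0.05. The FDR was computed from the same counts, so the sites are not separate support for the gathering of counts there. In DoHH-2 there were 36 sites with 85 counts in this part and 9 sites with 30 counts elsewhere. In GM01953 there were 3 sites with 8 counts in this part and 0 elsewhere. Downstream, DoHH-2 counts were scattered, with the highest position of the RNA at nucleotide 2255 (10 counts) and a smaller rise in the last part (28 counts, 11.1%, 7.77 to 15.5). The first part is rich in G and C, at 71.5% against 38.4% in the rest, and the part this composition played in the result was not tested.

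OIP5-AS1 lies at chr15:41283958-41322392 on the plus strand (ENSG00000247556), and its 72 annotated transcripts differ in their 3′ exons. The canonical transcript, with 6 exons, held 101 of 346 counts in DoHH-2 and 7 of 11 in GM01953. All of these were in the first 3 exons, with 46, 39 and 16 counts in DoHH-2 and 3, 4 and 0 in GM01953, and exons 4 to 6 were at 0 in both lines. In the longest transcript, OIP5-AS1-201 of 8881 nt, were 309 (89.3%) of the DoHH-2 counts and 9 of the GM01953 counts, and its last exon, chr15:41298041-41306539, held 208 and 2. This transcript was chosen after its values were seen.

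On that transcript the first of 10 parts was the fullest, with 149 counts in DoHH-2 (48.2%, 42.7 to 53.8) and 7 of 9 in GM01953 (77.8%), and the other DoHH-2 counts were spread over the remaining parts. The share in the fullest part of OIP5-AS1 in DoHH-2 depends on the transcript, at 99.0% of the counts on the canonical one and 33.7% over the union of all exons. Outside annotated exons lay 11 DoHH-2 counts and 2 GM01953 counts.

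**Figure D3:**
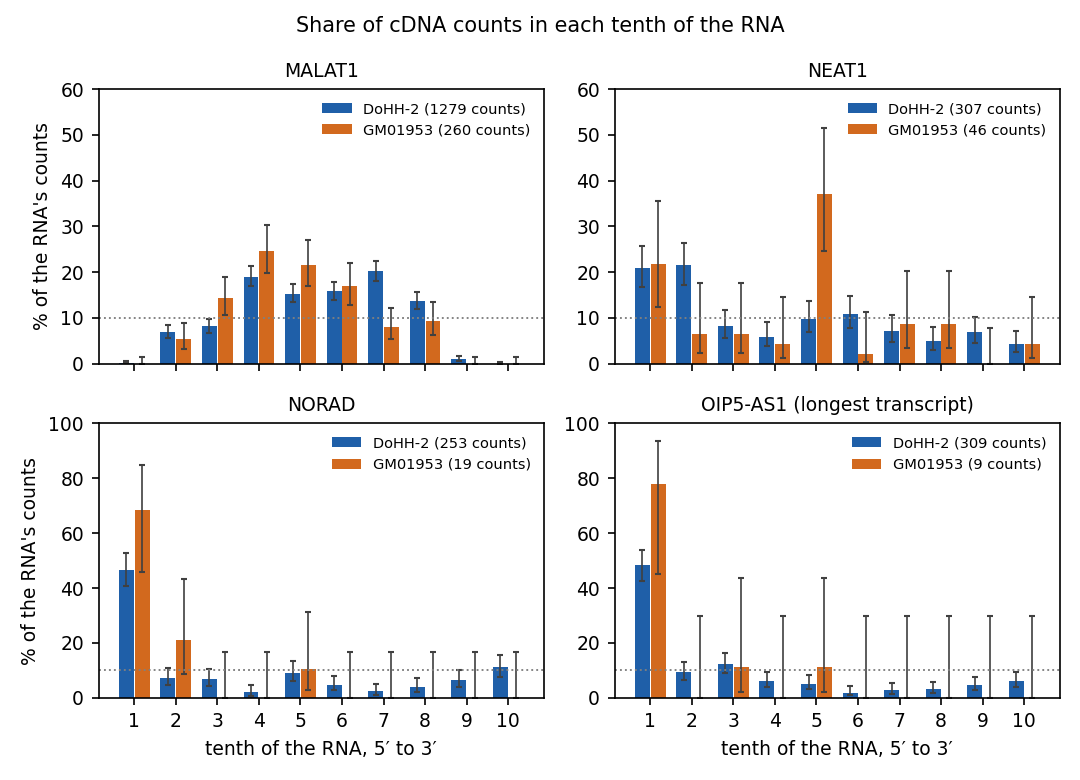
Percentage of each RNA's counts in 10 equal parts from 5′ to 3′, with Wilson 95% counting intervals as bars and the number of counts in the key. The dotted line at 10% is an even spread. MALAT1 is fullest at part 7 in DoHH-2 (20.2%), where part 4 holds 19.0% and the intervals overlap, and at part 4 in GM01953 (24.6%). Part 1 holds 46.6% of NORAD in DoHH-2 and 68.4% in GM01953.

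The share of counts at binding sites, over all 5 RNAs, was 33.9% (31.9 to 35.9) in DoHH-2 and 45.4% (40.2 to 50.7) in GM01953, against 43.7% and 55.6% of all counts in the lines. For MALAT1 it was 35.3% (159 sites) and 41.5% (30 sites), for NORAD 45.5% (45 sites) and 42.1% (3 sites), and for OIP5-AS1 40.5% (76 sites) and 72.7% (3 sites). NEAT1 stood apart in DoHH-2, where 10.7% (7.76 to 14.7) of its counts were at 12 sites, with 63.0% (48.6 to 75.5) at 9 sites in GM01953. In DoHH-2, 91.1% of the NEAT1 positions held a single count, beside 83.9% of all DoHH-2 positions.

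A rule of more than 20 counts at binding sites was passed by 4 of the 5 RNAs in DoHH-2, and by 22.1% of gene names with a count. In GM01953 it was passed by 2 of 5, MALAT1 and NEAT1, and by 7.33% of gene names with a count. The rule takes no account of RNA abundance. It differs from the authors' call of a bound RNA, which required enrichment in iCLIP over total RNA. NORAD and OIP5-AS1 had 8 counts each at sites in GM01953.

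Of the 190 GM01953 positions on these RNAs, 70 (36.8%, 30.3 to 43.9) were also found in DoHH-2, which is 4.55% of the 1537 DoHH-2 positions. Within 5 nt of a DoHH-2 position, identical positions included, lay 148 (77.9%). The same shares over all GM01953 positions were not computed, so these are not read as particular to the 5 RNAs. MALAT1 gave 61 of the identical positions, 41.8% of its 146 in GM01953, against 7.96% of its nucleotides with a DoHH-2 position. Within 5 nt were 127 of its positions (87.0%), against 44.1% of its nucleotides. For NEAT1 3 of 24 positions were identical and 6 of 24 within 5 nt. For NORAD it was 3 of 13 and 10 of 13, against 3.11% and 22.6% of its nucleotides. The shares of nucleotides take positions as spread evenly along each RNA. In both lines MALAT1 counts lay in the same central span, and NORAD counts gathered in the same first part. The overlap expected from these shared profiles is thus larger than the shares of nucleotides, and it was not computed.

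At the depth of GM01953, the DoHH-2 counts on MALAT1 would be expected to give 105 counts at 98.2 positions, with 6.11 positions holding 2 or more. GM01953 had 260 counts at 146 positions, with 48 holding 2 or more. A like gap was found over all positions, where 8.55% of the expected positions and 39.2% of the observed GM01953 positions held 2 or more counts. The part that this difference between the libraries had in the heights of single MALAT1 positions was not tested. On NEAT1, 0.429 such positions were expected and 8 were found.

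Cross-links on the 4 RNAs with more than 1 count lay most often at T in DoHH-2. The share of positions at T was 53.8% (50.4 to 57.2) on MALAT1 in DoHH-2 and 52.1% in GM01953 (146 positions), against 29.0% of its exon sequence. On NEAT1 it was 54.3% (48.3 to 60.1) in DoHH-2 and 70.8% (50.8 to 85.1) in GM01953, against 31.7%. Over all positions it was 43.7% in DoHH-2 and 39.4% in GM01953. NORAD had 40.5% (33.3 to 48.0) in DoHH-2 and 23.1% (8.18 to 50.3) in GM01953, and T is 12.9% of its first part and 32.2% of the rest. OIP5-AS1 had 49.3% (43.3 to 55.2) in DoHH-2, against 29.7% of its exon sequence, and 6 of 6 positions in GM01953. UV light cross-links uridine more readily than other bases, and its part in these shares was not tested.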

How the data were processed

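cDNA counts per cross-link position were deposited by the authors as 1 table per cell line. They removed PCR duplicates with BBMap, demultiplexed with Je, mapped reads to GRCh38 with HISAT2 (version not given in the sources used here), pooled the replicates and ran iCount. The FDR, a q-value per position, was also deposited by the authors. It was used at 0.05 for binding sites. Another deposited column, a score over extended regions, was not used.

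The sources do not state whether positions count from 0 or 1. They were read as 0-based from how they filled the gene bounds, so 1 was added. The base given at each position depends on this choice. Positions listed in several rows were counted once per gene. Genes, canonical transcripts and exons came from GENCODE release 44. Wilson 95% intervals (shares) and exact conditional binomial intervals (ratios) were computed with scipy 1.17.1. They cover counting error only. Genes with at least 20 counts over both lines were compared, and a ratio past 2-fold was called, with no p-value. The comparison was run on simulated counts with counting error only, with changes larger than 2-fold planted in genes with many counts. The simulation thus did not cover members with few counts, such as OIP5-AS1 in GM01953, or counts stacked at single positions.

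The members, lists and tests were chosen with earlier results of these data known. Named genes are the 5 members, a list of 11 other long non-coding RNAs, the 2 genes nearest to a member in ratio (for members with at least 50 counts in both lines), ACTB and GAPDH, and the 3 highest positions of each member and line. A planned sequence search in NORAD is not reported here.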

Additional observations from a re-analysis of the deposited data

How the results depend on the processing

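No paired analysis was possible because the replicates are pooled in the deposited tables, so no replicate could be left out either. Of 117 recomputed values, 76 were labelled as unchanged. They stayed within the counting interval, on the same side of 2-fold, or near the main number of RNAs past 2-fold. A change of that number from 2 to 3 was labelled as unchanged, as was a swap of the RNAs past the limit. Some of the values labelled as unchanged could not change by construction. The longest transcript is the canonical one for MALAT1, NEAT1 and NORAD. A limit of at least 50 counts over both lines leaves the ratio of each member as it was. The sum over the 5 RNAs in DoHH-2 and GM01953 became 833 and 1645 CPM at binding sites only, 1198 and 2399 of counts assigned to a gene, and 1303 and 2421 when positions were counted. With totals chosen after seeing the data it became 1283 and 2253 without histone genes, and 1422 and 2935 of coding exons. The sum was higher in GM01953 in each. The number of RNAs past 2-fold was 2 or 3 throughout. OIP5-AS1 fell to 1.83 at binding sites only, and NEAT1 passed 2-fold there (0.119), with coding exons as the total (0.498) and relative to the median gene (0.426). The NEAT1 ratio, 0.549 with the main settings, came nearer to 1 with positions instead of counts (0.746) and without the highest position (0.630). NORAD moved below 1 with positions instead of counts (0.860), with coding exons (0.994) and relative to the median gene (0.850). The density of MALAT1 and NEAT1 over NORAD became 0.687 in DoHH-2 at binding sites only, and 2.11 in DoHH-2 and 5.51 in GM01953 with NEAT1 cut at the end of its short isoform. With 1 nuclear RNA at a time it was 2.62 and 7.08 for MALAT1, and 0.288 and 0.575 for NEAT1, which reverses the direction in GM01953. The share at binding sites became 26.4% and 40.1% at an FDR of 0.01, and 19.0% and 23.7% over positions. With 20 parts, the fullest held 12.1% of MALAT1 and 30.8% of NORAD in DoHH-2. The share of GM01953 positions on the 5 RNAs found in DoHH-2 became 77.9% within 5 nt. The cause of these changes was not tested beyond their construction. Depth limits the GM01953 values of NORAD and OIP5-AS1, with 19 and 11 counts.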

Other observations

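In a list of 11 other long non-coding RNAs, all with at least 20 counts over both lines, 3 were over 2-fold higher in DoHH-2 and 4 in GM01953, and the median ratio, DoHH-2 over GM01953, was 0.789 beside 1.29 over all genes. GAS5, the host of several small nucleolar RNAs, was 2.29-fold higher in DoHH-2 with 334 counts against 12. MIR155HG, the host of the B-cell microRNA miR-155, had 4 DoHH-2 and 29 GM01953 counts, a ratio of 0.0113 (0.00290 to 0.0323). HCP5, a transcript of the major histocompatibility region, had 26 and 30 counts and a ratio of 0.0713. EPB41L4A-AS1 was 3.29-fold higher in GM01953 with 37 and 10 counts. Over all 480 long non-coding RNAs tested, 36.3% were over 2-fold higher in DoHH-2 and 22.3% in GM01953, with a median ratio of 1.18.

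Among 369 genes with at least 50 counts in both lines, the ratios nearest to that of MALAT1 (0.405) were those of SEC61B (0.400), a subunit of the translocation channel of the endoplasmic reticulum, and WDR1 (0.399), a cofactor of actin filament disassembly.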
